A study of Mus musculus with 12 samples.

Results

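Intermediate filaments of skeletal muscle, and the linker that ties them to other structures, were followed through 9 genes: *Des*, *Vim*, *Nes*, *Sync*, *Synm*, *Plec*, *Krt8*, *Krt18* and *Krt19*. The members were set by a list of gene symbols. All 9 were found among the 55450 genes of the count table, and all 9 passed the filter on low counts that left 19276 genes to test. RNA came from pieces of the tibialis anterior (TA), a fast muscle of the lower leg, of wild-type mice on the background that the sample labels give as 129Pas and the study's methods as 129SvPas. The 4 youngest were embryos at E18.5, 4 mice were 2 weeks (wks) old and 4 were 7 wks old, with 1 library per mouse, and the labels name no treatment or transgene. The study sequenced the 3 ages to look at splicing during muscle development after birth, and the comparison made here is how much RNA of each gene the muscle held at each age.

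Intermediate filaments are rope-like polymers of coiled-coil proteins that give cells mechanical strength. In muscle fibres, desmin (*Des*) filaments surround the Z-discs and connect neighbouring myofibrils to each other, to nuclei, to mitochondria and to the costameres of the cell membrane. Synemin (*Synm*) and syncoilin (*Sync*) are filament proteins of muscle that bind desmin and the dystrophin complex, and plectin (*Plec*) is the cross-linker that anchors the network. Vimentin (*Vim*) and nestin (*Nes*) belong to myoblasts, young fibres and many mesenchymal cells. Keratins 8, 18 and 19 (*Krt8*, *Krt18*, *Krt19*) are best known from simple epithelia and are also found in muscle, where keratins 8 and 19 lie at costameres.

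The libraries held 63018968 to 123449246 counts. The 20 most abundant genes took 8.38% to 11.3% of them at E18.5 and 32.2% to 37.7% at the later ages, so levels are given as CPM (normalized counts, set to the same library size with TMM), with mean ± SD of 4 mice. Under scaling to the total count instead, the tested genes had medians of -1.02 (log2 fold change to 2 wks) and -0.38 (2 to 7 wks), against -0.092 and -0.034 with TMM. Every library held RNA of muscle fibres: the 6 markers of mature fast fibres (*Ckm*, *Acta1*, *Tnnt3*, *Ttn*, *Myh4*, *Pvalb*) summed to 8451 to 15965 CPM at E18.5 and to 138749 to 178861 CPM at 2 and 7 wks. No other muscle was compared, so these markers do not tell the TA from other muscles. Library GC content, weighted by counts, was 47.1% to 48.9% at E18.5 and 49.2% to 50.3% at the later ages.

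The upstream sequences of 4 genes are shown because their courses differ: *Des* against *Vim*, and *Krt8* against its neighbour *Krt18*. Each is the 250 bases just before the RefSeq transcription start on GRCm38.p6, 5′ to 3′ on the gene's own strand, and capitals mark matches to the motifs searched. *Des* lies at chr1:75360292-75368579 (plus strand, window chr1:75360042-75360291), *Vim* at chr2:13574311-13582826 (plus, window chr2:13574061-13574310), *Krt8* at chr15:101996711-102004342 (minus, window chr15:102004343-102004592) and *Krt18* at chr15:102028216-102032026 (plus, window chr15:102027966-102028215).
Des: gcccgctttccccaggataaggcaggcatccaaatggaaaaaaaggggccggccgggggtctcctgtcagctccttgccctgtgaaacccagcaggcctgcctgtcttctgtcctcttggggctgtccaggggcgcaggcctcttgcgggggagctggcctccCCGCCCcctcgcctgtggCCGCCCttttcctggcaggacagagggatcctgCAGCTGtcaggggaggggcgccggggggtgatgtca
Vim: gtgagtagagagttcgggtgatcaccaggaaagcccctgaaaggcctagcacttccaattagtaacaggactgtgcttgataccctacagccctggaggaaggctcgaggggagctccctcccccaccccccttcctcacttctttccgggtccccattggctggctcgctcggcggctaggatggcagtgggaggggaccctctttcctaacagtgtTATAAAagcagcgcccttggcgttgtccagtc
Krt8: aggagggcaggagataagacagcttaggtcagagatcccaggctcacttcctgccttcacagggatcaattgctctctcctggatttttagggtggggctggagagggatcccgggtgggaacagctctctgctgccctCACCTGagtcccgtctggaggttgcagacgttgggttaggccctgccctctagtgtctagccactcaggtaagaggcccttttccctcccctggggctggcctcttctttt
Krt18: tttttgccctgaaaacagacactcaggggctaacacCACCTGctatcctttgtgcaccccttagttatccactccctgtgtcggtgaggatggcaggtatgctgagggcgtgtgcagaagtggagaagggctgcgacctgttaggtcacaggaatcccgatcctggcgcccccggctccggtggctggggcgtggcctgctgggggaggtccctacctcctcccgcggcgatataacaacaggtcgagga

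The motifs, read on both strands, were the E-boxes CAGCTG and CACCTG, the MEF2 site, the CArG box, TATAAA and GGGCGG. The *Des* window held CAGCTG at position -36 from the start, a word present in 13.0% of the 32851 RefSeq windows of this length, and 2 matches to GGGCGG, present in 32.7%. TATAAA, present in 12.4% of windows, was found in the *Vim* window at position -32. CACCTG, present in 17.2%, was found at position -111 of *Krt8* and at position -214 of *Krt18*. No MEF2 site (2.92% of windows) or CArG box (1.47%) was matched in these 4 windows, which says only that those letters are not in them. Of the 9 genes, 7 had an entry in the RefSeq promoter table and *Plec* and *Krt19* did not. The matches are a description of the sequence and were not tied to the RNA levels.

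Over the first interval *Des*, *Synm* and *Plec* of the mature fibre network rose, and *Krt8* fell. The rise of *Sync* rested on the scaling and the fall of *Krt18* on a single library, as given below. From E18.5 to 2 wks, 8 of the 9 genes passed an adjusted p of 0.05, 5 of them higher and 3 lower, where 65.7% of all tested genes passed (31.5% higher and 34.2% lower). *Des*, *Sync*, *Synm*, *Plec* and *Krt19* rose, *Nes*, *Krt8* and *Krt18* fell, and *Vim* did not pass. From 2 to 7 wks, 4 of the 9 passed, where 27.5% of tested genes did (13.5% higher and 13.9% lower): *Synm* rose, and *Vim*, *Nes* and *Krt8* fell. Between 7 wks and E18.5 all 9 passed, 5 higher and 4 lower, where 71.4% of tested genes did (34.3% higher and 37.1% lower). The median log2 change of the 9 genes was 0.96 in the first interval, the value of *Sync*, and -0.68 in the second, that of *Krt18*. Over every tested gene the medians were -0.092 and -0.034. The 9 genes moved in both directions, so their median describes no shared course. Under scaling to the total count the split was 4 higher and 4 lower in the first interval, without *Sync* and with *Vim*, where 13.2% of tested genes were higher and 61.9% lower. Between 7 wks and E18.5 it was 3 higher and 4 lower, where 11.9% were higher and 69% lower. The libraries of the ages did not overlap for 7 of the 9 genes in the first interval (61.3% of tested genes), for 4 in the second (33.7%) and for 8 between 7 wks and E18.5 (63.4%). In bulk muscle, fewer cells of a type and less RNA per cell cannot be told apart, and this holds for every gene below.

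**Figure D1:**
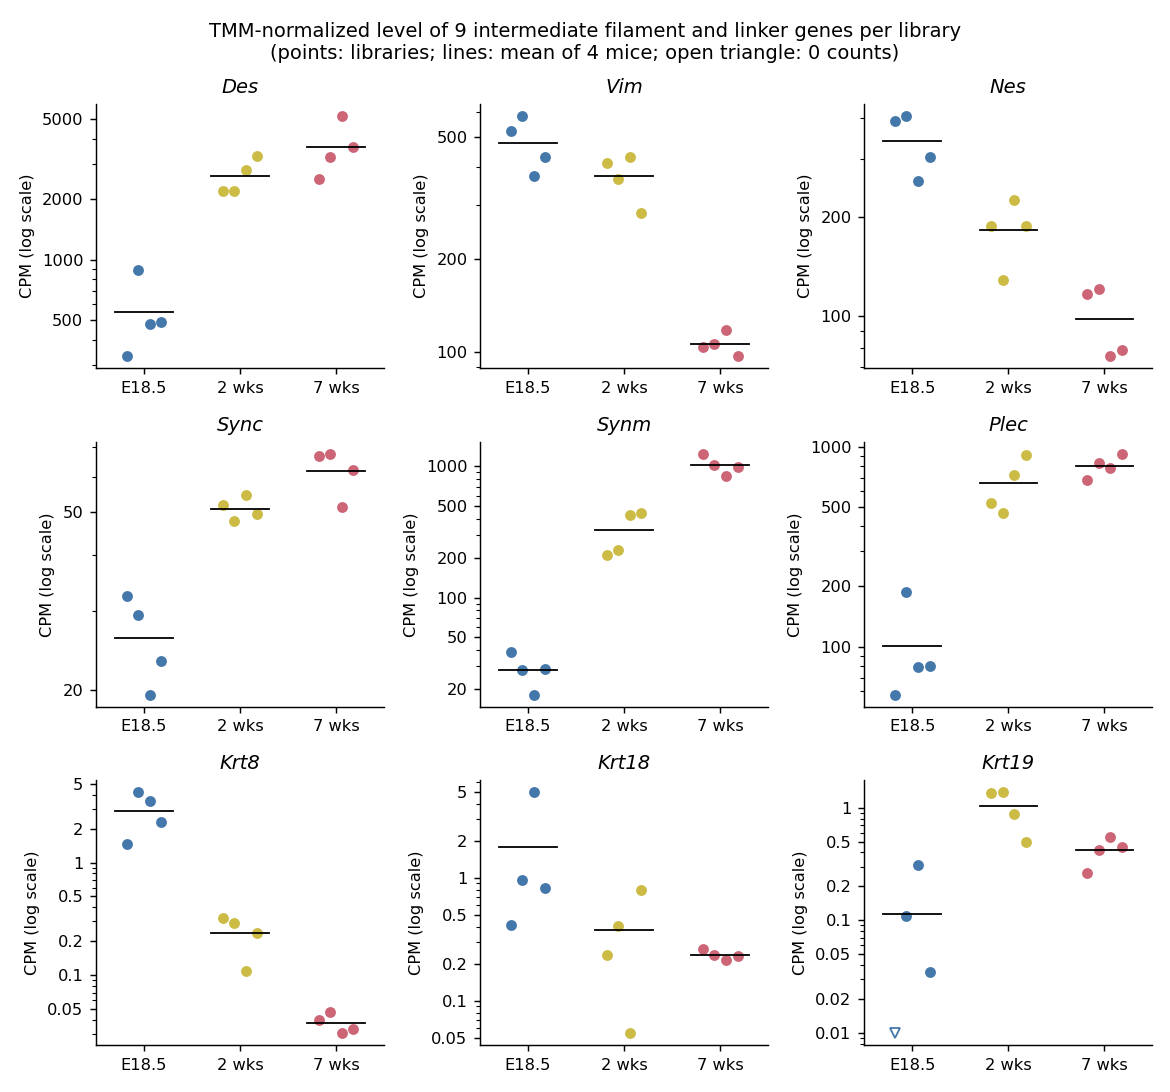
TMM-normalized CPM of each gene in the 12 libraries (log axis, each panel with its own range), with points for replicates 1 to 4 from left to right, lines for the mean of 4 mice and an open triangle for the library with 0 counts. *Des*, *Sync*, *Synm* and *Plec* stood higher in every library at 2 wks than at E18.5, *Nes* and *Krt8* fell at each step, and *Vim* dropped between 2 and 7 wks, when its mean went from 372 to 106 CPM.

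*Des* encodes desmin, the main filament protein of adult muscle, and had the highest mean level per length of the 9 genes at all 3 ages. Its level in replicates 1 to 4 was 331, 891, 482 and 493 CPM at E18.5 and 2205, 2187, 2790.2 and 3286 CPM at 2 wks. At 7 wks it was 2524, 3264, 5209.8 and 3644 CPM. The means were 549 ± 239.7, 2617 ± 527 and 3660.4 ± 1133 CPM. Every library at 2 wks stood above every library at E18.5, whereas the libraries at 2 and 7 wks overlapped. *Des* rose by 2.25 ± 0.31 (log2 fold change ± SE, adjusted p = 3.06e-05, edgeR) to 2 wks, and the further difference to 7 wks was 0.48 ± 0.30 (adjusted p = 0.245). The 4 E18.5 libraries differed by more than the later ones, with a coefficient of variation of 43.6%, the lowest value in the library of lowest GC content (replicate 1, 47.1%) and the highest in that of highest GC content (replicate 2, 48.9%). Once the trend of each library over the GC content of transcripts was taken out, that coefficient was 15.9%, the rise to 2 wks was 1.29 and the change after 2 wks was 0.75 (adjusted p = 0.00846).

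*Plec*, the giant linker between desmin filaments and Z-discs, costameres, nuclei and mitochondria, followed the same course. Replicates 1 to 4 held 57.5, 188, 78.7 and 80.4 CPM at E18.5, then 526, 464, 724 and 912 CPM at 2 wks and 682, 830.5, 779 and 920.2 CPM at 7 wks. The lowest library at 2 wks was above the highest at E18.5, and the libraries at 2 and 7 wks overlapped. *Plec* rose by 2.70 ± 0.34 on the log2 scale to 2 wks (adjusted p = 1.53e-05, edgeR) and differed by 0.29 ± 0.32 (adjusted p = 0.533) from 2 to 7 wks. As for *Des*, the spread at E18.5 was wide (58.3%) and narrower with the GC trend removed (20.5%). The rise to 2 wks was then 1.37 and the change after 2 wks 0.83 (adjusted p = 0.00726). At 61.3%, the transcripts of *Plec* had the highest GC content of the 9 genes.

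*Synm* encodes synemin, a large filament protein that cannot form filaments by itself and that co-assembles with desmin or vimentin. Of the 9 genes it had the largest fitted rise over the whole period, and it rose in both intervals. Its level was 38.3, 28.2, 18.2 and 28.5 CPM at E18.5 and 211, 230.5, 426 and 440.0 CPM at 2 wks. At 7 wks it was 1245, 1029, 841 and 993 CPM. No library of an age overlapped with those of another age. The means were 28.3 ± 8.20, 327 ± 123 and 1027 ± 167 CPM. The rise was 3.53 ± 0.30 to 2 wks (adjusted p = 5.69e-07, edgeR) and 1.65 ± 0.28 from 2 to 7 wks (adjusted p = 0.000985), or 36.3-fold between E18.5 and 7 wks. At 2 wks replicates 3 and 4 stood well above replicates 1 and 2, and all 4 stood above the highest E18.5 library.

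*Sync* encodes syncoilin, which binds desmin and the dystrophin-associated protein dystrobrevin. Its libraries held 32.4, 29.5, 19.5 and 23.2 CPM at E18.5, then 51.8, 47.7, 54.5 and 49.6 CPM at 2 wks and 66.8, 67.5, 51.4 and 62.0 CPM at 7 wks. All libraries at 2 wks were higher than those at E18.5. The rise to 2 wks was 0.96 ± 0.16 on the log2 scale (adjusted p = 0.000159, edgeR), and the difference from 2 to 7 wks was 0.28 ± 0.16 (adjusted p = 0.209). This rise rested on the scaling of the libraries, since the log2 fold change to 2 wks was 0.038 (adjusted p = 0.838, edgeR) under scaling to the total count. *Sync* also shares 3178 of its 5162 exonic bases with *Rbbp4* on the opposite strand, whose counts were 400% of those of *Sync*. Because the strand setting of the counting is not given in the sources used here, reads of the shared stretch may not have been told apart. The level of *Sync*, its share and its ratio to *Des* are uncertain to that extent.

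**Figure D2:**
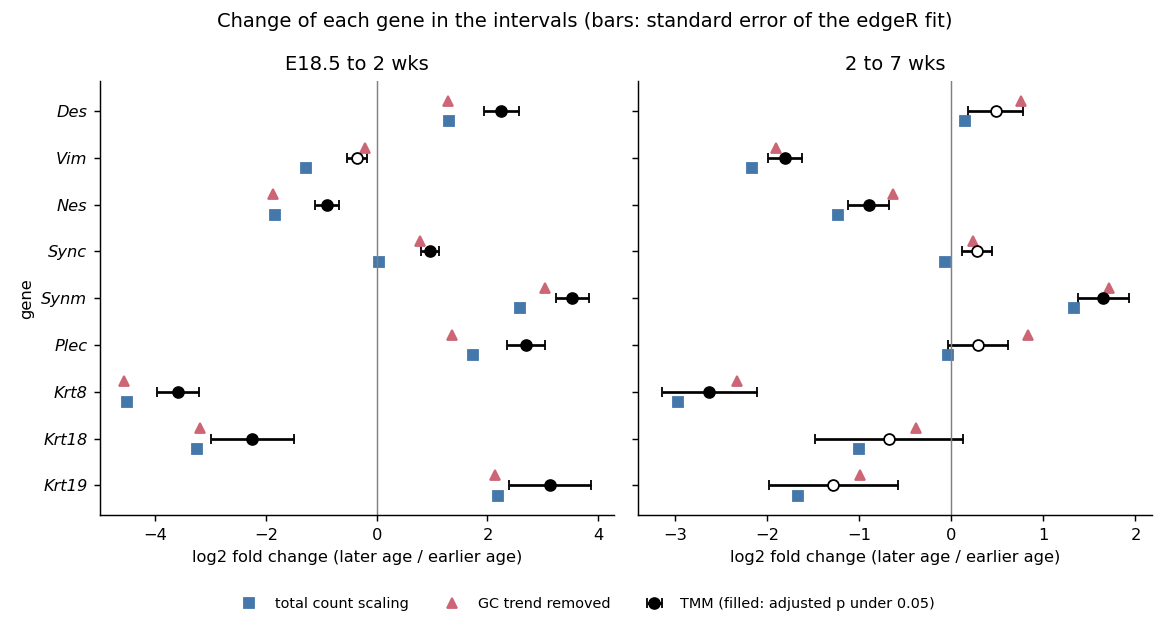
Log2 fold change of each gene from E18.5 to 2 wks (left) and from 2 to 7 wks (right), with circles for the TMM fit, bars for its standard error and filled circles for an adjusted p under 0.05. Squares give the value under scaling to the total count and triangles that with the GC trend removed; *Sync* moved from 0.96 to 0.038 under total count scaling in the first interval, and *Des* from 2.25 to 1.29 with the GC trend removed.

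*Vim* encodes vimentin, the filament protein of mesenchymal cells and of myoblasts. It fell between 2 and 7 wks. The level was 520.2, 584, 374 and 428 CPM at E18.5 and 411, 363, 429 and 284 CPM at 2 wks. At 7 wks it was 104, 107, 118 and 97.1 CPM. Libraries at E18.5 and 2 wks overlapped, while those at 7 wks all lay below the lowest at 2 wks. From 2 to 7 wks *Vim* fell by 1.81 ± 0.18 on the log2 scale, or 3.50-fold (adjusted p = 2.74e-05, edgeR). The log2 fold change to 2 wks was -0.36 ± 0.18 (adjusted p = 0.0869). This last value depended on the setting: it was -0.46 (adjusted p = 0.0401, edgeR) without replicate 3 of E18.5 and -0.41 (adjusted p = 0.0402) with DESeq2, and it was -1.28 (adjusted p = 2.18e-05) under scaling to the total count. In the other direction, it was -0.22 (adjusted p = 0.289, edgeR) with the GC trend removed and -0.24 without replicate 4 of 2 wks.

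*Nes* encodes nestin, a filament protein of neural and muscle precursors that stays at neuromuscular and myotendinous junctions in adult muscle. The E18.5 libraries held 392, 406, 257 and 304 CPM, those of 2 wks 188, 128, 225 and 187 CPM and those of 7 wks 117, 120.2, 75.2 and 78.6 CPM. The ages did not overlap. *Nes* fell by 0.90 ± 0.22 on the log2 scale in each interval (adjusted p = 0.00274 and 0.00946, edgeR). With the GC trend removed the fall to 2 wks was larger, at -1.87, and the change after 2 wks was -0.63 (adjusted p = 0.101, edgeR), which did not pass. The larger part of the fall thus lay in the first interval under that fit, although the difference of the intervals did not pass (-1.24, adjusted p = 0.0678, edgeR).

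Markers of other cells that hold vimentin or nestin, and of dividing cells, moved over the same ages, and their part in these levels was not tested. The 6 fibroblast markers summed to 4630 to 8851 CPM at E18.5, 3248 to 4843 CPM at 2 wks and 819 to 2868 CPM at 7 wks, with 4 of 6 lower in the first interval and 2 of 6 in the second. Satellite cell and myoblast markers summed to 98.5 to 181, 67.4 to 137 and 29.2 to 43.1 CPM, with 2 of 6 lower and 1 higher in the first interval and 2 of 6 lower in the second. Markers of dividing cells summed to 409 to 606, 76.8 to 155 and 3.10 to 13.9 CPM, and 6 of 6 fell in both intervals. Endothelial markers summed to 343 to 495, 762 to 923 and 459 to 754 CPM, with 4 of 6 higher in the first interval and 3 of 6 lower in the second. No marker of these 4 lists was at 0 in every library of an age.

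The ratio of 2 genes within a library does not depend on how libraries are scaled to each other. *Vim* counts per *Des* count were 1.57, 0.656, 0.775 and 0.869 in the E18.5 libraries, 0.186, 0.166, 0.154 and 0.0864 at 2 wks and 0.0411, 0.0327, 0.0226 and 0.0267 at 7 wks. The counts of the pair, not corrected for GC content, were thus of similar size at E18.5, and *Des* counts outnumbered those of *Vim* in every later library. The log2 ratio fell by 2.68 in the first interval and by 2.25 in the second (exact two-sided permutation tests, p = 0.0286 each, the smallest that 70 regroupings allow, and 0.0429 adjusted over 24 ratio tests). With the GC trend removed the falls were 1.49 and 2.65, so that the larger value lay in the second interval. The *Nes*:*Des* ratio fell in both intervals too, by 3.23 and by 1.36 (adjusted p = 0.0429 each, exact permutation).

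Within the pair of precursor filaments, *Nes*:*Vim* was even at E18.5, at 0.753, 0.695, 0.687 and 0.709, and more variable later. It was 0.457, 0.352, 0.524 and 0.658 at 2 wks and 1.13, 1.13, 0.638 and 0.809 at 7 wks. Its log2 value fell by 0.55 to 2 wks (adjusted p = 0.0429, exact permutation). From 2 to 7 wks the difference was 0.89 (adjusted p = 0.0807, exact permutation), and 7 wks differed from E18.5 by 0.34 (adjusted p = 0.261). With the GC trend removed the fall to 2 wks was 1.61, the rise from 2 to 7 wks was 1.23 and passed (adjusted p = 0.0429 each, exact permutation), and the difference between 7 wks and E18.5 had the opposite sign, at -0.37 (adjusted p = 0.468).

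The partners of desmin did not keep a fixed ratio to it. *Synm*:*Des* was 0.0608 ± 0.0383 at E18.5, then 0.122 ± 0.0261 at 2 wks and 0.311 ± 0.138 at 7 wks, with a log2 difference of 1.17 in the first interval (adjusted p = 0.114, exact permutation) and a rise of 1.26 in the second (adjusted p = 0.0429). *Sync*:*Des* fell by 1.34 to 2 wks (adjusted p = 0.0429, exact permutation) and differed by -0.18 (adjusted p = 0.686) afterwards. *Plec*:*Des* rose by 0.47 to 2 wks (adjusted p = 0.0429, exact permutation), a rise of 1.39-fold, and differed by -0.12 (adjusted p = 0.743) afterwards. With the GC trend removed, the *Plec*:*Des* difference to 2 wks was 0.071 (adjusted p = 0.457, exact permutation), that of *Sync*:*Des* was -0.46 (adjusted p = 0.0762) and that of *Synm*:*Des* was 1.77 (adjusted p = 0.0429).

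**Figure D3:**
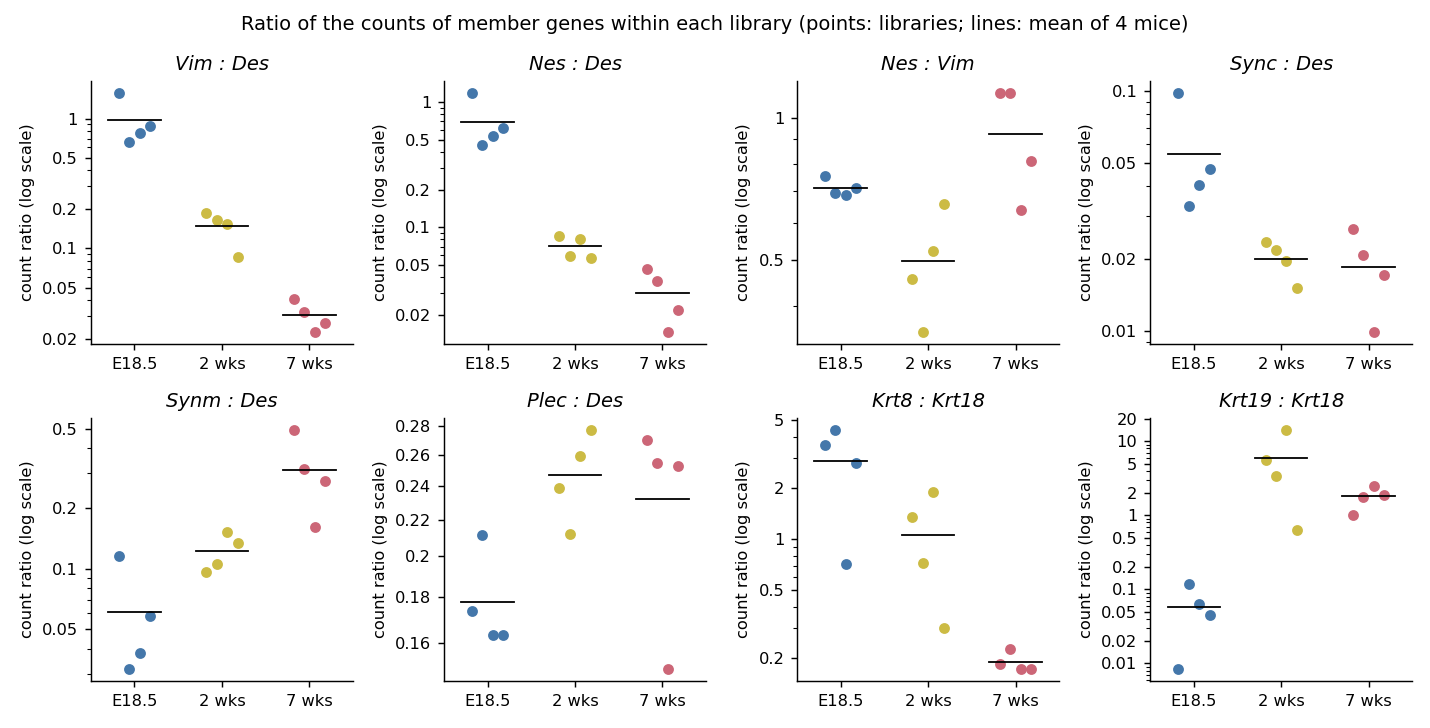
Ratio of the counts of 2 genes within each library (log axes, 0.5 added to each count), with points for replicates 1 to 4 from left to right at each age and lines for the mean of 4 mice. *Vim*:*Des* and *Nes*:*Des* stepped down at each age without overlap, from means of 0.968 and 0.697 at E18.5 to 0.0308 and 0.0298 at 7 wks, and *Synm*:*Des* reached 0.311 at 7 wks.

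Levels of different genes were compared per kilobase of exon, with no correction for GC content. At E18.5 *Des* (107 ± 46.6 CPM per kb) and *Vim* (100.3 ± 19.8) lay within each other's spread, followed by *Nes* (52.9 ± 11.1). *Plec* (5.59 ± 3.26), *Sync* (5.07 ± 1.13) and *Synm* (3.55 ± 1.03) came next, within each other's spread, and the keratins were lowest, with *Krt8* at 1.47 ± 0.629, *Krt18* at 1.24 ± 1.48 and *Krt19* at 0.0609 ± 0.0740 CPM per kb. *Krt8* and *Krt18* lay within each other's spread. At 7 wks the order was *Des* (712 ± 220.2), *Synm* (129 ± 20.9), *Plec* (44.3 ± 5.49), *Vim* (22.4 ± 1.82), *Nes* (15.2 ± 3.76) and *Sync* (12 ± 1.44), and the last pair lay within each other's spread. Among the keratins *Krt8* was now the lowest, at 0.0192 ± 0.00369 CPM per kb. *Krt19* (0.226 ± 0.0647) and *Krt18* (0.163 ± 0.0134) lay within each other's spread. With the GC trend removed, the E18.5 libraries held 686 to 968 CPM of *Des* and 364 to 606 CPM of *Vim*, not divided by length. That removal shifts the libraries of a gene relative to each other. It does not correct the level of a gene against that of another.

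As shares of the 8 filament-forming genes, summed per kilobase of exon, *Des* made up 26.1, 46.6, 41.9 and 39.4% in the E18.5 libraries, 73.7, 75.8, 74.1 and 80.5% at 2 wks and 70.1, 77.5, 86.9 and 80.7% at 7 wks. *Vim* made up 37.4% ± 4.89 (SD, n = 4) at E18.5, then 12.1% ± 3.21 at 2 wks and 2.58% ± 0.441 at 7 wks. *Nes* went from 19.8% ± 3.44 to 4.26% ± 0.753 and 1.82% ± 0.747. These 3 genes together with *Synm* held nearly all of the total at each age. In the first interval *Vim* and *Nes* lost share mainly to *Des*, whose mean rose from 38.5% to 76.0%. After 2 wks the mean share of *Synm* gained the most. That of *Des* rose as well, to 78.8%, with libraries that overlapped. The share of *Synm* was 1.35% ± 0.460, 5.99% ± 1.34 and 15.3% ± 5.47, and that of *Sync* stayed between 0.855% and 2.54% in all 12 libraries. The 3 keratins held at most 0.543% each in the mean of any age. These shares were not tested. They were not corrected for GC content and depend on the exon length given to each gene. With the longest transcript in place of all exons, *Nes* at E18.5 was 13.9% instead of 19.8%, and *Synm* at 2 wks was 3.85% instead of 5.99%. By that length *Des* went from 79.5% at 2 wks to 84.6% at 7 wks, and *Synm* from 3.85% to 10.2%.

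**Figure D4:**
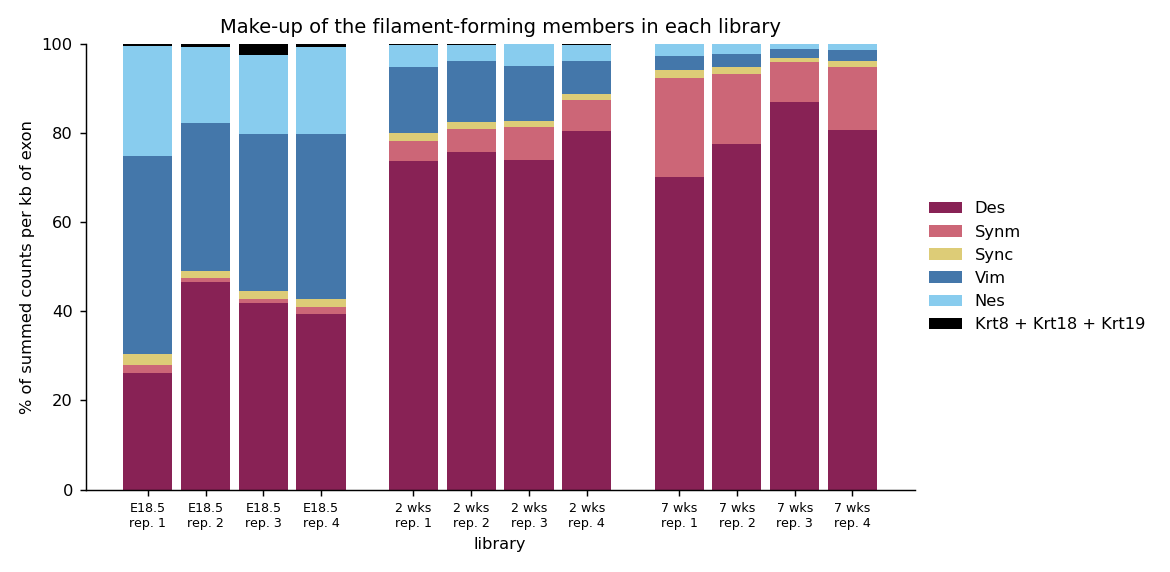
Share of each filament-forming gene in the counts per kilobase of exon summed over the 8 genes, as a stacked bar of 100% for each of the 12 libraries, with the 3 keratins added together. With no correction for GC content, *Des* and *Vim* were close to each other at E18.5 (means of 38.5% and 37.4%), and at 7 wks *Des* held 78.8%, *Synm* 15.3% and *Vim* 2.58%.

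The keratins were rare throughout, and each took its own course. *Krt8* encodes keratin 8, the type II partner of keratins 18 and 19 in simple epithelia. Its counts in replicates 1 to 4 were 213, 729, 724 and 459 at E18.5, then 19, 28, 8 and 18 at 2 wks and 2, 3, 2 and 2 at 7 wks. In CPM these were 1.48, 4.22, 3.53 and 2.29, then 0.319, 0.289, 0.110 and 0.235, then 0.0401, 0.0466, 0.0306 and 0.0330. The ages did not overlap. *Krt8* fell by 3.59 ± 0.38 on the log2 scale to 2 wks (adjusted p = 3.66e-06, edgeR) and by 2.63 ± 0.52 from 2 to 7 wks (adjusted p = 0.00258). At 7 wks the counts are so few that the fitted value depends on the prior count. From the pooled counts, 2125 at E18.5 and 9 at 7 wks, the level at E18.5 was 78.4 times that at 7 wks (95% interval 41.2 to 171.8), and that at 2 wks, with 73 counts, was 6.36 times (3.17 to 14.5). These intervals cover counting error only.

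*Krt18* encodes keratin 18, the type I partner of keratin 8, from a gene 23873 bases away from *Krt8*. Its counts were 59, 165, 1014 and 164 at E18.5, then 14, 39, 4 and 61 at 2 wks and 13, 15, 14 and 14 at 7 wks. Replicate 3 of E18.5 stood far above the others, at 4.94 CPM against 0.409 to 0.956 CPM, and at 7 wks the 4 libraries were within 0.214 to 0.261 CPM. *Krt18* fell by 2.25 ± 0.75 on the log2 scale to 2 wks (adjusted p = 0.0166, edgeR), with 1 of 16 pairs of libraries the other way. Without replicate 3 of E18.5 the value was -0.96 (adjusted p = 0.154, edgeR), so the call rested on that library. The difference from 2 to 7 wks was -0.68 ± 0.80 (adjusted p = 0.563), and between 7 wks and E18.5 *Krt18* was lower by a log2 fold change of -2.92 ± 0.79 (adjusted p = 0.00441, edgeR), or -1.64 without that library (adjusted p = 0.0249).

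*Krt19* encodes keratin 19, which has been described with keratin 8 at costameres of muscle fibres. It rose to 2 wks, when *Krt8* fell. Its counts were 0, 19, 63 and 7 at E18.5, then 81, 133, 64 and 38 at 2 wks and 13, 27, 36 and 27 at 7 wks. In CPM, the libraries at 2 wks held 1.36, 1.37, 0.876 and 0.496, and those at 7 wks held 0.261, 0.419, 0.551 and 0.445. Replicate 1 of E18.5 had 0 counts, which allows up to 0.0208 CPM (3 counts), and the other E18.5 libraries held 0.0349 to 0.307 CPM. All libraries at 2 wks were above all those at E18.5, whereas 7 wks overlapped with both. *Krt19* rose by 3.13 ± 0.74 on the log2 scale to 2 wks (adjusted p = 0.00198, edgeR) and differed by -1.28 ± 0.70 (adjusted p = 0.192) from 2 to 7 wks. The difference between 7 wks and E18.5, 1.85 ± 0.74 (adjusted p = 0.0363, edgeR), lost its call when replicate 2 or 4 of E18.5 or replicate 2, 3 or 4 of 7 wks was left out, with values of 1.55 to 1.87 and the highest adjusted p, 0.0858, without replicate 4 of E18.5. It also missed the threshold under total count scaling (0.54, adjusted p = 0.517, edgeR), upper-quartile scaling (1.61, adjusted p = 0.0626), with the GC trend removed (1.15, adjusted p = 0.146) and with only the 8 libraries compared (1.77, adjusted p = 0.0712).

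Within libraries, the balance of the keratins changed. *Krt8*:*Krt18* was 3.59, 4.41, 0.714 and 2.79 at E18.5, then 1.34, 0.722, 1.89 and 0.301 at 2 wks and 0.185, 0.226, 0.172 and 0.172 at 7 wks. The log2 difference to 2 wks was -1.46 (adjusted p = 0.171, exact permutation), and from 2 to 7 wks the ratio fell by 2.198 (adjusted p = 0.0429). With 5 counts in place of 0.5 added to each gene, the latter was -1.12 (adjusted p = 0.171, exact permutation), since most of the *Krt8* counts at 7 wks are 2. *Krt19*:*Krt18* was 0.00840, 0.118, 0.0626 and 0.0456 at E18.5 and 5.62, 3.38, 14.3 and 0.626 at 2 wks, a rise of 6.46 on the log2 scale (adjusted p = 0.0429, exact permutation), and 1.0, 1.77, 2.52 and 1.90 at 7 wks. The size of that rise is loose. The value of 0.00840 comes from 0 counts of *Krt19* and depends on the 0.5 added, and that of 14.3 rests on 4 counts of *Krt18*. With single libraries left out, the rise ran from 5.70 (without replicate 1 of E18.5) to 7.30 (without replicate 4 of 2 wks).

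Markers of epithelia were read in the same libraries, because the keratins mark such cells. The 6 simple epithelium markers (*Epcam*, *Cdh1*, *Cldn4*, *Esrp1*, *Krt7*, *Elf3*) summed to 1.19, 2.73, 14.2 and 1.501 CPM in the E18.5 libraries, 0.784 to 3.00 CPM at 2 wks and 0.843 to 1.48 CPM at 7 wks. The 5 mesothelium markers (*Msln*, *Upk3b*, *Wt1*, *Lrrn4*, *Upk1b*) summed to 1.62, 0.979, 9.65 and 1.30 CPM at E18.5, 0.431 to 1.12 CPM at 2 wks and 0.281 to 0.870 CPM at 7 wks. Both lists were thus highest in replicate 3 of E18.5, the library in which *Krt18* was highest. *Epcam*, for example, was at 3.18 CPM there and at 0.0832 to 0.162 CPM in the other E18.5 libraries. *Upk3b* was at 0 in all libraries at 2 wks, and *Wt1* and *Upk1b* at 7 wks. Of the tested markers, 3 of 4 of simple epithelium and 3 of 4 of mesothelium fell to 2 wks.

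The fall of *Krt8* to 2 wks lay between -3.81 and -3.35 on the log2 scale when any library, replicate 3 of E18.5 included, was left out. Markers of the epidermis were highest in replicate 2 of E18.5 (50.0 CPM against 1.74 to 7.71 CPM in the other 3) and in replicate 2 of 7 wks (10.9 CPM against 1.67 to 3.45 CPM). Among the E18.5 libraries *Krt8* too was highest in replicate 2, at 4.22 CPM, and next in replicate 3, at 3.53 CPM. Replicates 1 and 4 held 1.48 and 2.29 CPM of *Krt8*. As for *Des*, the lowest and highest of these libraries had the lowest (47.1%) and highest (48.9%) GC content at E18.5. The coefficient of variation of *Krt8* at E18.5 was 42.5%, and 19.8% with the GC trend removed. *Krt19* was highest at 2 wks, where the 3 epithelial lists were between 0.431 and 4.01 CPM. Of these lists, *Msln* alone had a higher mean at 2 wks (0.735 CPM) than at E18.5 (0.538 CPM). *Cdh1* held 0.457 to 2.65 CPM at 2 wks. At E18.5 it held 5.47 CPM in replicate 3 and 0.395, 0.724 and 0.190 CPM in replicates 1, 2 and 4. The parts of epithelial cells and of library GC content in the keratin levels were not tested.

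**Figure D5:**
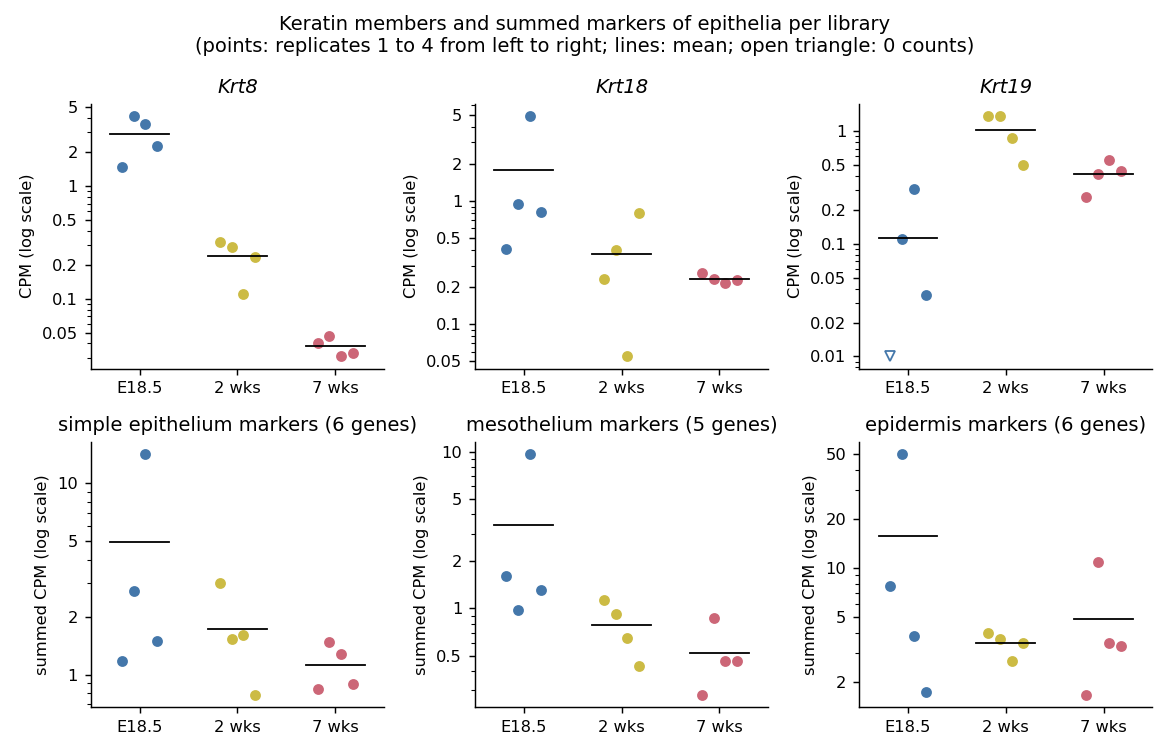
Level of the 3 keratin genes (top) and summed level of the detected markers of simple epithelium, mesothelium and epidermis (bottom) in CPM on log axes, with points for replicates 1 to 4 from left to right at each age, lines for the mean and an open triangle for 0 counts. *Krt18*, simple epithelium and mesothelium share their highest library, replicate 3 of E18.5, at 4.94, 14.2 and 9.65 CPM. *Krt8* was high in several E18.5 libraries and highest in replicate 2 (4.22 CPM), as was epidermis (50.0 CPM). That library also had the highest GC content at E18.5 (48.9%). *Krt19* was high at 2 wks.

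The change to 2 wks was compared with the change from 2 to 7 wks in a contrast of its own, which 38.4% of tested genes passed (21.6% with the larger value in the first interval and 16.8% with the smaller). Of the 9 genes, 5 passed, all with the larger value in the first interval. The difference of the log2 changes was 1.77 ± 0.50 for *Des* (adjusted p = 0.0142, edgeR), 2.41 ± 0.54 for *Plec* (adjusted p = 0.00406) and 1.88 ± 0.46 for *Synm* (adjusted p = 0.00651). For these 3 genes of the fibre network the rise to 2 wks was larger than the later one. For *Vim* the difference was 1.45 ± 0.30 (adjusted p = 0.00248, edgeR), with a fall that passed after 2 wks, and for *Krt19* it was 4.41 ± 1.15 (adjusted p = 0.00945). *Nes*, with a difference of -0.0051 ± 0.38 (adjusted p = 0.994, edgeR), had fitted falls of the same size in both intervals. With the GC trend removed, 3 genes passed, 2 with the larger value in the first interval (*Vim* and *Krt19*) and 1 with the smaller (*Krt8*, -2.25, adjusted p = 0.0205, edgeR), where 15.4% and 19.1% of tested genes passed in those directions. In that fit the differences for *Des* (0.53, adjusted p = 0.215, edgeR), *Plec* (0.54, adjusted p = 0.247) and *Synm* (1.33, adjusted p = 0.0514) did not pass. Without replicate 4 of 2 wks the value for *Des* was 1.52 (adjusted p = 0.0565, edgeR), and under total count scaling it was 1.16 (adjusted p = 0.0593).

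Other genes of the same system were read from 3 lists. Of 16 other intermediate filament genes, 15 were tested, and 3 rose and 9 fell to 2 wks (median log2 fold change -1.30), while 1 rose and 5 fell from 2 to 7 wks (median -0.91). Of all tested genes, 31.5% rose and 34.2% fell to 2 wks. The split to 2 wks was 0 higher and 12 lower under total count scaling (13.2% and 61.9% of tested genes). It was also 0 and 12 with the GC trend removed, where 5147 tested genes were higher and 7759 lower. The largest fall with no overlap between libraries was that of *Nefl*, the neurofilament light chain of axons, at 0.334 to 1.63 CPM at E18.5 and at most 0.0515 CPM at 2 wks (log2 fold change -5.36 ± 0.77, adjusted p = 4.37e-05, edgeR). The epidermal keratins *Krt5* (-7.03, adjusted p = 0.00519, edgeR) and *Krt14* (-5.21, adjusted p = 0.00687) fell as well, with libraries that overlapped and the highest level in replicate 2 of E18.5. From 2 to 7 wks the 3 lamins of the nuclear envelope fell: *Lmnb2* by 2.17 ± 0.27 on the log2 scale (adjusted p = 0.000126, edgeR), *Lmnb1* by 1.55 ± 0.18 (adjusted p = 7.40e-05) and *Lmna* by 1.25 ± 0.34 (adjusted p = 0.0159). *Krt5* rose by 6.31 ± 1.94 in that interval (adjusted p = 0.0275, edgeR), a call that was lost when any of 5 libraries was left out, and its value was 3.93 without replicate 2 of 7 wks.

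Of 12 other linkers, 11 were tested, with 3 higher and 3 lower at 2 wks (median 0.18) and 4 higher at 7 than at 2 wks (median 0.50). *Jup*, plakoglobin of adherens junctions and desmosomes, rose by 3.24 ± 0.30 to 2 wks (adjusted p = 1.23e-06, edgeR), from 11.7 ± 5.11 to 111 ± 21.2 CPM. *Dst*, dystonin, a giant relative of plectin, rose by 1.02 ± 0.18 from 2 to 7 wks (adjusted p = 0.00114, edgeR), from 223 ± 43.7 to 452 ± 65.2 CPM. *Ppl*, periplakin, rose by 1.63 ± 0.39 in that interval (adjusted p = 0.00842, edgeR). Of 14 partners and chaperones of the filaments, 5 rose and 3 fell to 2 wks (median 0.36) and 3 rose from 2 to 7 wks (median 0.37), a count that ran from 0 to 5 when single libraries were left out and was 0 without replicate 1 of 2 wks. *Cryab*, the small heat shock protein that protects desmin, rose by 2.43 ± 0.34 to 2 wks (adjusted p = 3.69e-05, edgeR), from 127 ± 46.7 to 684 ± 285 CPM. *Bag3*, a co-chaperone at the Z-disc, rose by 2.12 ± 0.22 (adjusted p = 3.03e-06, edgeR), from 26.8 ± 3.93 to 116 ± 32.0 CPM. Next to the shares of all genes that passed, 65.7% and 27.5%, these lists were not tested as sets.

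The genes whose levels were most like each member over the 12 libraries were found by Pearson's r of log2 CPM among 11888 genes, as a description of libraries that share their age, depth and GC content. Among those most like *Des* were *Dnlz* and *Ppp2r5b* (both r = 0.996). For *Plec* they were *Camk2b* (0.997), *Arhgef10l* (0.996) and *Gpc1* (0.995), and for *Synm* they were *Kbtbd12* (0.998), *Osbpl6* (0.998) and *Spop* (0.997). *Sync* was most like *Dusp3* (0.986), *Gpr157* (0.982) and *Srl* (0.981), the gene of sarcalumenin in the sarcoplasmic reticulum. *Vim* was most like *Cplx2* (0.984), *Tmsb10* (0.979) and *Litaf* (0.978), and *Nes* like *Slc7a1* (0.986), *Wdr1* (0.985) and *Calml4* (0.983). Among the keratins, *Krt8* was most like *Cybc1* (0.991), *Maged1* and *Rhno1* (both 0.987), and *Krt19* like *Tspan4* (0.953), *Pced1b* (0.949) and *Mfng* (0.944). *Krt18* had no gene as close, with *Zkscan6* first at 0.864. Among the members themselves, *Des* and *Plec* were the most alike pair (r = 0.985).

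The other 5 genes lie at chr3:87971093-87980451 (*Nes*), chr4:129287256-129309383 (*Sync*), chr7:67730161-67759742 (*Synm*), chr11:100140810-100145926 (*Krt19*) and chr15:76170974-76231378 (*Plec*) of GRCm38.p6. Besides *Sync*, several genes share exonic bases with others. *Des* shares 288 exonic bases with *Gm15179* on the opposite strand, which took counts equal to 0.688% of those of *Des*. *Plec* shares 205 exonic bases with *Parp10* on the same strand, whose counts were 3.24% of those of *Plec*. *Synm* shares 463 bases with *Gm45102* and 84 with *Ttc23*, both on the opposite strand, and *Krt8* shares 101 with *Gm36026*. The pseudogene *Krt8-ps* had 3 counts in all 12 libraries.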

How the data were processed

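RNA of TA muscle pieces from 12 wild-type mice was made into libraries with a stranded poly(A) kit and read as paired ends. The deposited table holds raw read counts per Ensembl gene, which the authors made, per the labels, with bcl2fastq 2.17.1.14, cutadapt 1.10, STAR 2.5.3a and HTSeq 0.6.1p1. The labels name mm10 and the paper's methods GRCm39. The annotation and strand setting of the counting are not given in the sources used here. Symbols, exon lengths and GC content come from GENCODE vM39, and coordinates and promoters from RefSeq on GRCm38.p6. Of 55450 genes, 51477 had a reference symbol.

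TMM scaling and filterByExpr came before the quasi-likelihood F test, run with edgeR 4.0.16 and limma 3.58.1 under R 4.3.3 in 1 fit of 12 libraries with age as the only term. P-values were adjusted by Benjamini-Hochberg over all 19276 tested genes, with a threshold of 0.05. Ratios within libraries (0.5 added to each count) were compared by two-sided exact permutation over 70 regroupings. With a biological coefficient of variation of 0.279, counting error was small except for the keratins. Replicates are separate mice, and no pair of an age agreed within counting error (chi-square per degree of freedom 31.2 to 524 over 18 pairs). Alternatives were total count and upper-quartile scaling, the 20 most abundant and 37 mitochondrial genes left out, tests with DESeq2 1.42.0, a filter of 10 or more counts in each library or none, a replicate block, removal of each library's GC trend (spline with 5 degrees of freedom, GC known for 98.7% of tested genes), a log2 fold change beyond 1 (glmTreat), only the 8 libraries compared, and each library left out. For the 3 lists of other filament genes, linkers and partners these alternatives were added after seeing the data. The procedure was tested on simulated data. Members, lists and tests were chosen with earlier results of these data known. Named genes were all members, the 3 largest rises and falls of the 3 lists in each interval, the markers, and the 3 genes most like each member among those whose mean log2 CPM reached 1, of which 1 is not reported here. *Eppk1* and *Lor* were not matched by symbol, and *Gfap*, *Dsg3*, *Cldn4*, *Esrp1* and *Upk3b* had too few counts to be tested. Tables were handled with Python 3.11.15, pandas 2.3.3 and numpy 2.4.6, and figures were drawn with matplotlib 3.10.9.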

Additional observations from a re-analysis of the deposited data

Results flagged for a closer look

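*Krt18* at E18.5 had a library far from the other 3: replicate 3 was at 4.94 CPM, where the others were at 0.409 to 0.956 CPM. Of 27 sets of 4 libraries examined, 1 had such a library, and chance gives 1.35. The same library was the highest for the markers of simple epithelium (14.2 CPM) and mesothelium (9.65 CPM), and the part of such cells was not tested.

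The change to 2 wks and the change after 2 wks differed for 5 genes, as the difference of the log2 changes (edgeR, adjusted over all tested genes). It was 1.77 for *Des*, 1.45 for *Vim*, 1.88 for *Synm*, 2.41 for *Plec* and 4.41 for *Krt19*. With the GC trend removed, the values for *Vim* (1.69, adjusted p = 0.00122, edgeR) and *Krt19* (3.14, adjusted p = 0.0397) passed, the difference for *Krt8* passed in the other direction (-2.25, adjusted p = 0.0205), and those for *Des*, *Synm* and *Plec* did not pass.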

How the results depend on the processing

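The cause was not tested for any of the changes named here. Total count scaling gave -1.28 for *Vim*, 0.038 for *Sync* and -0.81 for *Lmnb2* to 2 wks, -0.064 for *Sync*, -0.035 for *Plec* and -0.043 for *Bag3* from 2 to 7 wks, -0.026 for *Sync*, 0.54 for *Krt19* and -0.047 for *Ppl* between 7 wks and E18.5, and 1.16 for *Des*, -0.46 for *Lmnb1* and -0.11 for *Dst* in the difference of the intervals, where 6 linkers and 7 partners passed. Of the 19276 tested genes, 2550 then passed higher and 11923 lower to 2 wks, 948 and 5392 from 2 to 7 wks, 2291 and 13297 between 7 wks and E18.5, and 2326 and 6104 in the difference of the intervals. Upper-quartile scaling gave -0.50 for *Vim* and -0.024 for *Lmnb2* to 2 wks, 1.61 for *Krt19* at 7 wks against E18.5, and 0 partners from 2 to 7 wks. DESeq2 gave -0.41 for *Vim* to 2 wks. Without a filter, 1 partner passed from 2 to 7 wks. With at least 10 counts in every library, *Vim* was at -0.48 and *Lmnb2* at -0.0079 to 2 wks, and 6 other filament genes passed to 2 wks and 6 between 7 wks and E18.5.

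Libraries of the same replicate number were not regularly alike (correlations of -0.283 to 0.514 in 12 pairs, -0.500 to 0.382 in 36 others). No pairing by number was seen, but these values cannot show that the numbers carry none. The replicate block gave -1.82 for *Krt18* to 2 wks and differences of the intervals of 0.066 for *Nes* and 0.72 for *Sync*, and changed no other call of a member. Removing the GC trend gave -0.93 for *Lmnb2* and -0.17 for *Lmna* to 2 wks, 0.75 for *Des*, -0.63 for *Nes* and 0.83 for *Plec* from 2 to 7 wks, and 1.15 for *Krt19* at 7 wks against E18.5. In the difference of the intervals 3 members then passed, with 0.53 for *Des*, 1.33 for *Synm*, 0.54 for *Plec*, -2.25 for *Krt8* and -1.04 for *Lmnb1*. Of the ratios, *Nes*:*Vim* was at 1.23 from 2 to 7 wks and -0.37 between 7 wks and E18.5, *Sync*:*Des* at -0.46, *Synm*:*Des* at 1.77 and *Plec*:*Des* at 0.071 to 2 wks, and *Plec*:*Des* at 0.10 from 2 to 7 wks. With 5 counts added, *Krt8*:*Krt18* was at -1.12 from 2 to 7 wks.

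For a log2 fold change beyond 1, the genes that passed were 5507 (5 members) to 2 wks, 561 (2) from 2 to 7 wks, 7574 (7) between 7 wks and E18.5 and 2463 (2) in the difference of the intervals. Other filament genes were then 6, 2 and, in the difference, 4, linkers 3, 0 and, between 7 wks and E18.5, 3, and partners 4, 0, 5 and, in the difference, 1. With only the 8 libraries compared, *Krt19* was at -1.31 (adjusted p = 0.0194, edgeR) from 2 to 7 wks and at 1.77 between 7 wks and E18.5, and 5 partners passed from 2 to 7 wks. With the longest transcript, shares were 79.5% for *Des*, 2.85% for *Nes*, 1.14% for *Sync* and 3.85% for *Synm* at 2 wks, 13.9% for *Nes* at E18.5, and 0.0127% for *Krt18* and 0.0194% for *Krt19* at 7 wks.

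With single libraries left out, values ran from -0.46 to -0.24 for *Vim*, from -2.91 to -0.96 for *Krt18*, from 0.79 to 1.49 for *Lmna* and from -0.079 to 0.50 for *Lmnb2* to 2 wks. From 2 to 7 wks they ran from 3472 (without replicate 1 of 2 wks) to 6145 genes, from 0 to 5 partners, from 2.10 to 4.51 for *Krt14*, from 3.93 to 7.31 for *Krt5* and from -1.87 to 0.36 for *Nefl*. Between 7 wks and E18.5 they ran from 1.47 to 3.06 for *Krt19*, from -3.11 to 0.56 for *Krt14*, from -3.10 to 0.97 for *Krt5* and from -0.52 to 0.24 for *Lmna*. In the difference of the intervals they ran from 1.52 to 2.11 for *Des*, from -0.23 to 0.28 for *Nes*, from 0.56 to 0.80 for *Sync*, from 1.47 to 2.36 for *Cryab*, from -10.4 to -7.08 for *Krt14*, from -0.18 to 0.30 for *Lmnb1*, from -2.62 to -1.72 for *Ppl*, from 5 to 9 for other filament genes and from 2 to 6 for partners. Of the member values under other settings, 278 of 302 kept direction and call. Depth limits *Krt8* at 7 wks, with 2 or 3 counts a library.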

Other observations

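Muscle maturation and the other cells of the tissue were read from markers in the same fit. Of 6 markers of mature fast fibres, 6 rose to 2 wks and 1 rose from 2 to 7 wks. Of 5 markers of fetal fibres (*Myh3*, *Myh8*, *Actc1*, *Tnnt2*, *Chrng*), 4 fell in the first interval and 5 in the second, and their summed level was 9056 to 14026 CPM at E18.5, 2727 to 9455 CPM at 2 wks and 707 to 3635 CPM at 7 wks. At 2 wks the lowest sum, 2727 CPM, was that of replicate 4, in which *Vim* was also the lowest of its age (284 CPM). That sum was nearly all *Actc1*, at 2668 CPM in this library. The other markers of the list did not move together there: *Myh3* was the highest of its age (18.8 CPM) and *Tnnt2* the lowest (6.11 CPM). The mean of *Actc1* was 3279 CPM at E18.5 and 7124 CPM at 2 wks.

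Smooth muscle and pericyte markers, cells that hold both desmin and vimentin, summed to 425 to 624 CPM at E18.5, 1083 to 1674 CPM at 2 wks and 928 to 1160 CPM at 7 wks, with 4 of 6 higher in the first interval and 2 of 6 lower in the second. Of 6 endothelial markers, 4 rose and then 3 fell. Of 6 Schwann cell markers, 3 rose and 2 fell to 2 wks and 4 fell afterwards, and replicate 1 of 2 wks stood apart at 493 CPM, where the others of that age were at 96.0 to 177 CPM. Of 6 macrophage markers, 3 fell to 2 wks and 4 from 2 to 7 wks. Of 5 tested epidermis markers, 4 fell to 2 wks and 2 rose afterwards.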
